A study of Mus musculus with 8 samples.

Results

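The proteins of the cytosolic ribosome were described at the RNA level in mouse liver, through 84 genes of the Rpl (large subunit) and Rps (small subunit) families. Single genes were taken by annotation and name, not by how they behaved, though the set was chosen with earlier results of these data known. A gene entered if its row of the deposited expression table carried the KEGG pathway entry for the ribosome. Its symbol also had to begin with Rpl or Rps and to have no pseudogene suffix. These were 84 of the 33467 genes of that table, 51 of the large and 33 of the small subunit, out of 133 rows with the ribosome entry. Fau, which encodes a ribosomal protein fused to a ubiquitin-like protein, stayed outside by its name and is given separately. The samples were livers of wild type C57BL/6J mice, 4 on a standard diet (control) and 4 fed 1% 3,5-diethoxycarbonyl-1,4-dihydrocollidine (DDC), both for 4 weeks. DDC is a porphyrin-generating compound used to injure bile ducts and cause cholestasis with biliary fibrosis. The labels call the 8 livers biological replicates of a single batch, and the ages and sex of the mice are not given in the sources used here. Polyadenylated RNA from whole liver was sequenced, so a change in the number of cells of a type and a change in RNA per cell cannot be told apart.

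A ribosome is built from ribosomal RNA and one copy of most ribosomal proteins, made in about equal number, assembled in the nucleolus into a small subunit that reads the messenger RNA and a large subunit that joins amino acids. The messenger RNAs of these proteins are known for a start made of pyrimidines, the 5′ terminal oligopyrimidine (TOP) tract, through which growth signals acting by mTORC1 and the LARP1 protein control their translation. Because that control acts on translation, the amount of such a messenger RNA does not by itself tell how much protein is made. Several members have a relative of very similar sequence that is known for expression in particular tissues, such as Rpl3l in muscle and Rpl39l in testis.

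Total counts per library ran from 61179103 to 64768950 in the controls and from 63312756 to 81664058 in DDC, and all 84 members passed the filter on low counts. A pair of scalings was used throughout, since they gave opposite directions. With library totals alone a level is the gene's share of its library's counts, given on the usual CPM scale. With TMM, which multiplies each total by a factor chosen so that most genes do not differ, the factors were 0.792 to 0.816 in the controls and 1.21 to 1.27 in DDC. Going from TMM to totals therefore added 0.617 to 0.629 to every member's log2 difference, DDC minus control. The libraries of a group were not equally alike. By the chi-square per gene between their counts, controls 1 and 3 (13.5) and controls 2 and 4 (62.7) were nearer to each other than across these pairs (162 to 220), and DDC 1 stood apart from the other DDC livers (89.7 to 98.9, against 15.9 to 22.5 among those). A gene is called higher or lower where the Benjamini-Hochberg adjusted p of edgeR's quasi-likelihood test over 19535 genes was under 0.05.

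With TMM scaling 35 of the 84 members were lower in DDC, 4 were higher and 45 were not called. Among all tested genes 26.6% were called lower and 30.2% higher, or 56.8% in either direction. The median log2 difference of the members was -0.157, with an interquartile range of -0.30 to -0.035, against a median of 0.073 over all tested genes. With library totals the picture turned: 72 members were higher, 0 lower and 12 not called, beside 58.9% of all genes higher and 8.96% lower (67.8% in all). The members' median was then 0.467 and that of all genes 0.695. The median member lay below the median gene, by -0.229 with TMM and -0.228 with totals, a distance that a change of scaling leaves the same by construction. The log2 difference was negative for 67 members with TMM and for 1 with totals. By calls, 27 members were lower with TMM and higher with totals, 4 were higher in both, and 0 were lower in both. The 12 that were not called with totals were Rpl3l, Rpl7a, Rpl10, Rpl22, Rpl35a, Rpl36al, Rpl37rt, Rps2, Rps27, Rps27l, Rps27rt and Rps28, chosen here after their values were seen.

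**Figure D1:**
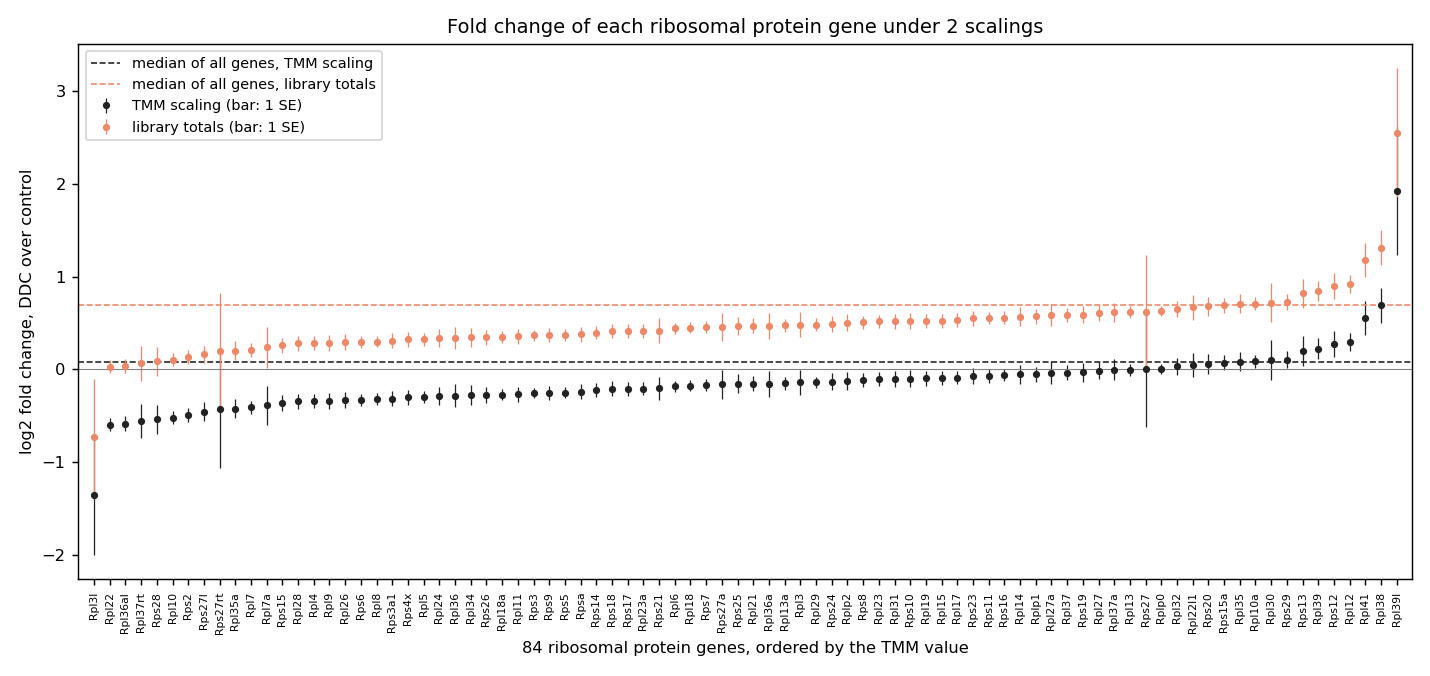
Log2 difference (DDC minus control) of each of the 84 members with TMM scaling (black) and with library totals (orange), ordered by the TMM value (bars, 1 SE; dashed lines, medians of all genes). The same pattern moves up by about 0.62 from one scaling to the other, which takes the median from -0.157 to 0.467.

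The overlap of the single livers was counted as well. With TMM the 4 DDC livers lay all below the 4 controls for 29 members and all above them for 1, Rpl38, while 54 overlapped (all genes: 25.7% below, 26.9% above, 52.6% in all). With totals the DDC livers lay all above the controls for 63 members and below them for 0 (all genes: 54.3% and 8.2%, 62.5% in all). The controls were less alike than the DDC livers. The median member of control 1 stood 0.144 (log2, TMM) above the control mean, that of control 2 stood 0.169 below it (-0.169), and controls 3 and 4 stood at 0.009 and 0.002. The 4 DDC livers stood at -0.0883, -0.165, -0.149 and -0.229, so control 2 lay within their range. Without control 2 the number of members lower with TMM was 43, without DDC 1 it was 38, and without DDC 2 or DDC 4 it was 23. Of the 2 pairs of like controls, leaving out controls 1 and 3 gave 19 lower and 5 higher, and leaving out controls 2 and 4 gave 44 lower and 0 higher, alternatives added after the data were seen. The median coefficient of variation of the members between animals was 10.3% in the controls and 6.33% in DDC, against 17.9% and 12.9% over all genes. The members were not set beside genes of like abundance, so a lower variation is not shown to be particular to them.

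Read as a share of each library, which is the scale of library totals, ribosomal protein counts took 1.15, 0.955, 1.07 and 0.998% of the counts in the controls and 1.42, 1.34, 1.43 and 1.35% in DDC. Every DDC liver was above every control, and the means were 1.04% ± 0.086 and 1.39% ± 0.049 (SD, n = 4 each), a ratio of 1.33. A share depends on the other genes of the library. The 20 most abundant genes, 0 of which are members, took 24.5% of the counts in the controls and 21.8% in DDC. With them left out the member share was 1.38% ± 0.127 and 1.77% ± 0.051, so the 2 groups remained apart. Set against the mitochondrial ribosomal proteins, a comparison that no scaling touches, the members held 6.55 ± 0.315 counts per Mrpl or Mrps count in the controls and 7.52 ± 0.108 in DDC.

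**Figure D2:**
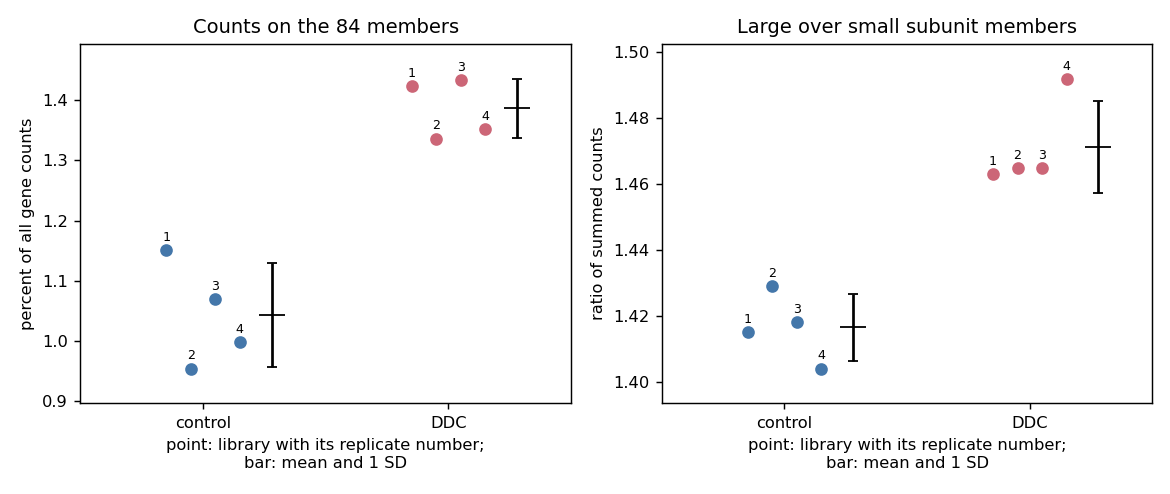
Left, summed ribosomal protein counts per library as a percent of all counts, and right, the ratio of large-subunit to small-subunit counts (points, livers numbered by replicate; bars, mean and SD, n = 4). All 4 DDC livers lie above all 4 controls in both, at 1.34 to 1.43% against 0.955 to 1.15% of all counts and at ratios of 1.463 to 1.492 against 1.404 to 1.429.

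The levels of marker genes of several cell types differed between the groups, which does not tell cell number from RNA per cell. Hepatocyte markers were lower in 7 of 7 tested (8 listed) with TMM and their summed level went from 138400 to 164700 CPM in the controls to 57690 to 72970 CPM in DDC. Monocyte and macrophage markers were higher in 8 of 8 (142.6 to 181.9 CPM against 1145 to 1229), fibroblast markers in 6 of 6 (193.8 to 303.6 against 999.2 to 1184) and cholangiocyte markers in 5 of 6 (66.8 to 144.5 against 698.6 to 1072). The neutrophil sum went from 22.5 to 29.1 in the controls to 91.8 to 121 in DDC, with 4 of 5 markers higher. The lymphocyte sum was 4.07 to 5.31 against 6.91 to 9.83 CPM, with 3 of 7 markers higher and 3 lower. The erythroid sum was 816.5 to 1008 against 282.6 to 698.4, with 6 of 6 tested markers lower. With totals 2 of these 6 were lower and 4 not called, and the erythroid sums overlapped (648.4 to 818.3 against 356.1 to 855.2), while 6 of 7 hepatocyte markers were lower. No tested marker of these lists was at 0 in the mean of either group. The part of these cells in the results on ribosomal protein genes was not tested.

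Members of both subunits were called lower with TMM and higher with totals. With TMM 16 of 33 small-subunit members were lower and 0 higher (median -0.208), and 19 of 51 large-subunit members were lower and 4 higher (median -0.143). With totals 28 small-subunit and 44 large-subunit members were higher, and 0 of either were lower. The ratio of large-subunit to small-subunit counts, which needs no scaling, was 1.41, 1.43, 1.42 and 1.40 in the controls and 1.46, 1.46, 1.46 and 1.49 in DDC. The DDC livers were all above the controls, at 1.47 ± 0.0138 against 1.42 ± 0.0102 (SD, n = 4). Leaving out Rplp0, the most abundant stalk protein, the ratio was 1.31 to 1.33 in the controls and 1.35 to 1.37 in DDC. Leaving out Rpl12 as well, it was 1.274 to 1.288 and 1.295 to 1.322, a smaller difference in which the groups were still apart. Leaving out the 6 most abundant large-subunit members gave 0.900 to 0.907 and 0.947 to 0.961, so the groups were also apart without these genes. Only large-subunit members were left out in these alternatives. Abundant small-subunit members stayed in, among them Rps2, at 688.5 CPM in the controls and 490 in DDC with TMM. Rpsa also stayed in, at 632 and 533 CPM. Whether the groups stay apart without Rps2 or Rpsa was not tested. The separation is therefore not shown to hold without single abundant small-subunit members.

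The stalk of the large subunit, which recruits the elongation factors, is made of Rplp0, Rplp1 and Rplp2. Rplp0 (chromosome 5, 115559467 to 115563727, GRCm38) stood at 522, 516, 505 and 500 CPM with TMM in the controls and at 510, 507, 516 and 517 in DDC. The values intermix, and the log2 difference was 0.00 (SE 0.05, edgeR adjusted p = 0.952). With totals its level was 412 ± 11.7 CPM in the controls and 636 ± 19.8 in DDC (SD, n = 4), a 1.54-fold rise (log2 0.63, edgeR adjusted p = 6.79e-06). Rplp1 (114 ± 11.1 against 110 ± 7.21 CPM, log2 -0.06, edgeR adjusted p = 0.584) and Rplp2 (50.9 ± 6.38 against 46.7 ± 3.67, log2 -0.12, adjusted p = 0.307) were likewise not called with TMM. They rose with totals, by 0.57 and 0.50 on the log2 scale. Rplp0 thus sits above the middle of the family: scaled so that the summed counts of the members are equal in all livers, an alternative added after the data were seen, it was higher by 0.21 (adjusted p = 0.0422).

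The members lower with TMM included some of the most abundant of the family. Rpl10, which joins the large subunit late, near the peptidyl transferase site, lies at chromosome X, 74270812 to 74273135, and stood at 675, 555, 623 and 579 CPM in the controls and at 434, 427, 415 and 416 in DDC. Every DDC liver was below every control, and the TMM difference was -0.52 on the log2 scale (SE 0.07, edgeR adjusted p = 0.000194, 1.44-fold lower), while with totals it was 0.10 (adjusted p = 0.227). Rps2, a protein of the messenger RNA entrance, lies at chromosome 17, 24718116 to 24721926. Its levels were 757, 613, 718 and 666 CPM in the controls and 505, 484, 495 and 477 in DDC. The groups did not overlap (log2 -0.49, SE 0.07, edgeR adjusted p = 0.000365) with TMM, and with totals the difference was 0.13 (adjusted p = 0.135). Its value is uncertain to the extent that counting split reads with its processed copies, of which 9 rows bear its name. Such rows, found by the member's symbol and a -ps suffix, exist for 55 of the 84 members. The 210 Rpl and Rps rows with that suffix together held 7.80% ± 0.416 of the members' counts in the controls and 7.20% ± 0.233 in DDC (SD, n = 4). Copies under other names were not counted.

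Rpl22 (chromosome 4, 152325742 to 152334070), a protein on the outer surface of the large subunit, had the largest decline with TMM among called members above 10 CPM. Its levels were 84.5, 71.4, 84.5 and 84.3 CPM in the controls and 53.3, 53.1, 56.9 and 51.4 in DDC. All DDC livers were below all controls, by -0.60 with TMM (SE 0.07, edgeR adjusted p = 5.85e-05, 1.51-fold lower), and it was not called with totals (log2 0.03, adjusted p = 0.746). Rpl36al (chromosome 12, 69182731 to 69184013), a close relative of Rpl36a, stood at 77.5, 62.6, 70.1 and 76.7 CPM in the controls and at 53.2, 46.4, 47.1 and 44.2 in DDC. It did not overlap either (log2 -0.59, SE 0.08, edgeR adjusted p = 0.000258 with TMM, 0.04 and adjusted p = 0.707 with totals). Both were also lower when the members were scaled on their own sum. The other 4 of the 8 largest called declines above 10 CPM were Rps28 (-0.54), Rps27l (-0.46), Rpl35a (-0.43) and Rpl7 (-0.41) with TMM. With totals Rpl7 rose (0.21, adjusted p = 0.0298) and the other 3 were between 0.09 and 0.20 and not called. Rps27l, a p53 target, was 42.1, 34.3, 39.8 and 48.1 CPM in the controls and 32.4, 30.7, 28.6 and 27.7 in DDC, all below the controls.

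Some members with a function beyond the ribosome were examined whatever they did. Rpl5 and Rpl11, which with 5S RNA bind the p53 inhibitor Mdm2, were at 324 ± 22.8 and 189 ± 19.5 CPM in the controls and 263 ± 10.6 and 157 ± 6.67 in DDC (SD, n = 4) with TMM. The log2 differences were -0.30 (edgeR adjusted p = 0.00385) and -0.27 (adjusted p = 0.0175), and with totals both were higher, by 0.32 and 0.35. The Rpl11 call with TMM was lost without DDC 2 or DDC 4 (adjusted p = 0.0516 and 0.0501). Rps6, the substrate of S6 kinase, was 421 ± 29.7 CPM in the controls and 334 ± 6.53 in DDC (log2 -0.33, edgeR adjusted p = 0.00183), and rose by 0.29 with totals. Rpsa, which is also known as a laminin receptor, stood at 704, 571, 674 and 578 CPM in the controls and 558, 521, 523 and 529 in DDC. The DDC livers were below all controls, and the TMM call (log2 -0.25, edgeR adjusted p = 0.0272) was lost under 5 of 8 omissions of a library (adjusted p = 0.0655 to 0.0842). With totals Rpsa was higher by 0.38 (adjusted p = 0.0025). Rpl4, the third of the most abundant members by CPM, was 610 ± 54.8 in the controls and 481 ± 6.82 in DDC (log2 -0.34, edgeR adjusted p = 0.00298), and 0.28 higher with totals.

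The 4 members higher with TMM were Rpl12, Rpl38, Rpl39l and Rpl41, and all 4 were higher with totals too. Rpl12 (chromosome 2, 32961559 to 32965345), at the base of the stalk, was 227, 171, 205 and 181 CPM in the controls and 251, 252, 245 and 214 in DDC. One DDC liver lay within the control range, and the difference was 1.23-fold (log2 0.30, SE 0.10, edgeR adjusted p = 0.0275), lost under 5 of 8 omissions of a library (adjusted p = 0.0541 to 0.0824). Rpl41 (chromosome 10, 128548114 to 128549162), whose coding sequence of 78 bases is the shortest of the family, was 42.9, 36.5, 64.4 and 53.8 CPM in the controls and 90.7, 69.7, 59.1 and 70.4 in DDC. These ranges overlapped (log2 0.55, SE 0.19, edgeR adjusted p = 0.0327), and the call was lost under 6 of 8 omissions. Rpl39l (chromosome 16, 10170226 to 10174911) had 11, 4, 6 and 12 counts in the controls and 8, 61, 78 and 84 in DDC. DDC 1 was among the controls while the other 3 DDC livers were far above them (log2 1.92, SE 0.69, edgeR adjusted p = 0.0369, lost under 6 of 8 omissions). Rpl38 (chromosome 11, 114668524 to 114672331), named after its values were seen since it lies under 10 CPM, was 8.34, 4.47, 5.78 and 5.12 CPM in the controls and 8.74, 10.1, 9.11 and 10.2 in DDC. Its livers did not overlap, and it was 1.61-fold higher with TMM (log2 0.69, SE 0.19, edgeR adjusted p = 0.0107) and 2.48-fold with totals (log2 1.31, adjusted p = 0.000188), and it kept its call under all 8 omissions.

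**Figure D3:**
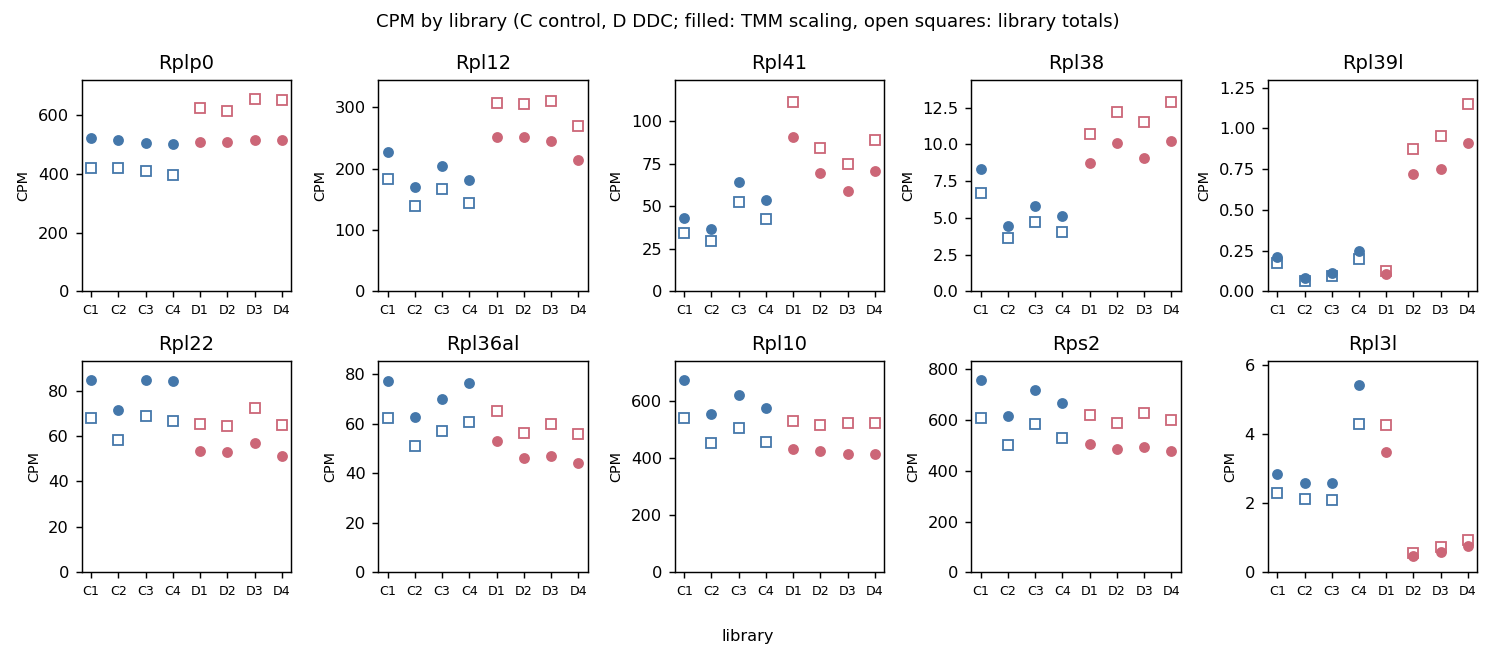
CPM of 10 members in each liver (C1 to C4 controls, D1 to D4 DDC; filled points TMM, open squares library totals). With TMM Rpl10, Rps2, Rpl22 and Rpl36al lie lower in all DDC livers, Rplp0 overlaps, and Rpl38 lies higher in all DDC livers.

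Scaling the libraries on the summed counts of the members (added after seeing the data) shows which of them moved relative to that sum. Then 16 were higher, 6 lower and 62 not called, beside 36.9% of all genes higher and 17.5% lower. The 6 lower were Rpl7, Rpl10, Rpl22, Rpl35a, Rpl36al and Rps2, chosen here by that count, and the 16 higher included Rpl12, Rpl38, Rpl39, Rpl41, Rplp0, Rps12, Rps20 and Rps29. These 16 and 6 were 19.05% and 7.143% of the members, below the shares of all genes in both directions. Because the members' own sum is the reference, some members must lie on either side of it. Abundant members weigh most in the sum, which is not the middle of the family. The median member lay at 0.0573, with 50 members positive and 34 negative. Rpl22 fell by 0.38 relative to that sum (edgeR adjusted p = 0.000906). Coding length was set beside the differences, without Rpl3l and Rpl39l, whose changes are the largest of the family and rest on few counts. The median TMM difference was -0.139 for 20 members of 78 to 354 bases (6 lower, 2 higher) and -0.0708 for 20 of 360 to 447 bases (5 lower, 0 higher). It was -0.167 for 20 of 456 to 612 bases (10 lower, 1 higher) and -0.259 for 21 of 615 to 1260 bases (13 lower, 0 higher), so the order by length was not even. The correlation with coding length was r = -0.38 and rho = -0.26 over these 81 members, and r = -0.48 and rho = -0.31 over all 83 with a length. It is a description across genes that share libraries and are not independent replicates. Against the level in the controls (CPM) the values were r = -0.39 and rho = -0.36 over the same members. Which of length and level goes with the difference was not tested.

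The level of the family is compared between genes on the FPKM scale, which divides by length. The annotated exonic length of the members ran from 374 to 6270 bases, and the coding length from 78 to 1260. The order between genes therefore depends on annotation. With totals Rpsa (3170 exonic bases) had 509 CPM and 155 FPKM in the controls, and Rps3a1 (977 exonic bases) had 285 CPM and 282 FPKM. The mean FPKM in the controls ran from 0.148 (Rpl39l) to 293 (Rps2), with a median of 45.2, and in DDC from 0.887 (Rpl39l) to 369 (Rplp0), with a median of 70.6. The highest by FPKM in the controls were Rps2 at 293 ± 26.3, Rps3a1 at 282 ± 29.8, Rplp0 at 240 ± 7.27, Rpl4 at 237 and Rpl10 at 231 (SD, n = 4). In DDC the order was headed by Rplp0 at 369 ± 11.6, Rps3a1 at 347 ± 14.6 and Rps2 at 320 ± 9.63. Rps2 and Rps3a1 did not differ beyond their spread in the controls, and Rplp0 moved past both in DDC.

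Members with a close relative gave ratios that need no scaling, since both counts come from the same library. Rpl22l1, a relative that can take the place of Rpl22, was not called itself with TMM (12.6 ± 2.19 CPM in the controls, 13.0 ± 1.07 in DDC, log2 0.04, edgeR adjusted p = 0.789) and rose with totals (log2 0.67, adjusted p = 0.00163). The log2 ratio of Rpl22l1 to Rpl22 was -2.50, -2.79, -2.59 and -2.90 in the controls and -1.96, -2.18, -2.01 and -2.04 in DDC. All DDC livers were above all controls by 0.65 in the mean, or 1.57-fold, with an exact permutation p = 0.0286, the smallest that 4 against 4 can give, and 0.0667 after Benjamini-Hochberg adjustment over the 7 pairs tested. The ratio of Rpl36al to Rpl36a was 0.80, 1.25, 0.96 and 1.24 in the controls and 0.76, 0.62, 0.47 and 0.60 in DDC on the log2 scale, 1.37-fold lower (exact permutation p = 0.0286, adjusted 0.0667). Rpl7l1 against Rpl7 had a difference of 0.24 with the same p-values. None of the 3 passed an adjusted threshold of 0.05, which they could not do with only 3 of the 7 pairs at the smallest possible p.

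**Figure D4:**
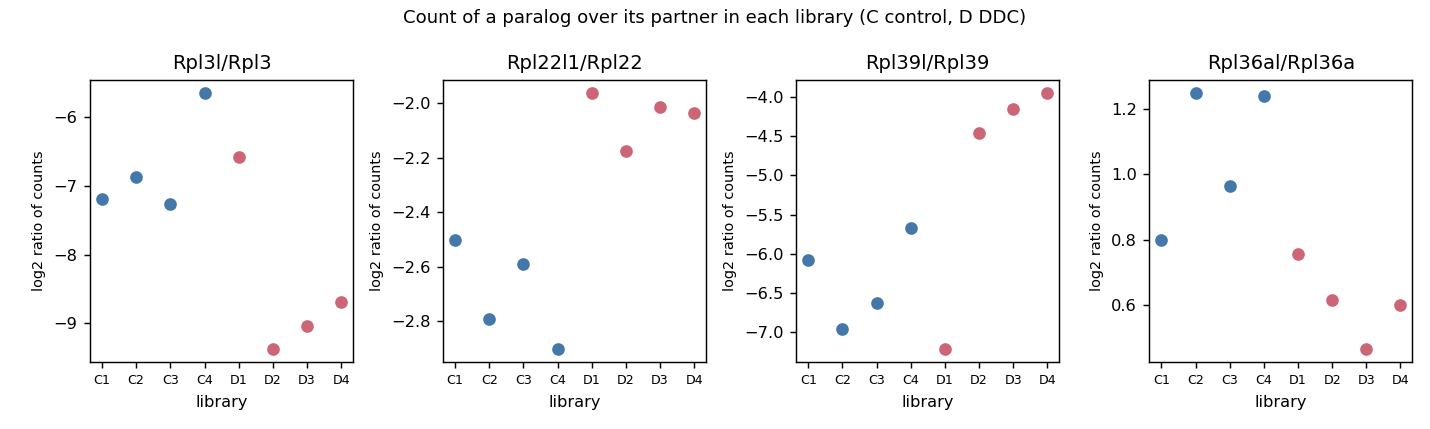
Log2 ratio of the counts of 4 relatives to their partners in each liver (points; C1 to C4 controls, D1 to D4 DDC). The DDC livers all lie above the controls for Rpl22l1/Rpl22 and all below them for Rpl36al/Rpl36a, while DDC 1 lies within the control range for Rpl3l/Rpl3 and, at -7.21, below the controls for Rpl39l/Rpl39, where the other 3 DDC livers lie above them.

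Rpl3l, the muscle form of Rpl3, was 2.85, 2.59, 2.59 and 5.41 CPM in the controls and 3.48, 0.461, 0.579 and 0.749 in DDC with TMM. DDC 1 lay in the control range and the other 3 far under it, so the gene was not called (log2 -1.35, SE 0.65, edgeR adjusted p = 0.103). Without DDC 1 the log2 difference was -2.51 with an adjusted p = 0.000255. DDC 1 was thus the liver nearest the controls for both tissue-restricted members Rpl3l and Rpl39l. Rpl3 itself was 419, 303, 399 and 271 CPM in the controls and 334, 309, 308 and 310 in DDC, not called with TMM (adjusted p = 0.377), and higher by 0.48 with totals (adjusted p = 0.0104). The coding sequence of Rpl3l was 74.4% identical to that of Rpl3 over 1209 bases, against 85.3% for Rpl39l and Rpl39, 87.9% for Rpl36al and Rpl36a, and 70.2% for Rpl22l1 and Rpl22.

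The counts of Rps27 and Rps27rt show a limit of counting reads per gene. Rps27 (chromosome 3, 90212522 to 90213648) encodes a zinc-finger protein of the small subunit. Rps27rt is a row of 374 bases at chromosome 9, 114982366 to 114982739, annotated as 1 exonic stretch of that full length. The coding sequences of both, taken from the GENCODE transcripts of GRCm38, are shown because they are the same in all 255 bases, with Rps27l below them in the same reading frame and its 61 differing bases in capitals:
Rps27: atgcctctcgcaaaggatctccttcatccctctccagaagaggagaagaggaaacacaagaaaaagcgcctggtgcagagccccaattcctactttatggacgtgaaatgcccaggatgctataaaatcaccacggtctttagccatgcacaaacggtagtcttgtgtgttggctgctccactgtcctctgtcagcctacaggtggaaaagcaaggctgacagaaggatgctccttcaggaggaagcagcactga
Rps27l: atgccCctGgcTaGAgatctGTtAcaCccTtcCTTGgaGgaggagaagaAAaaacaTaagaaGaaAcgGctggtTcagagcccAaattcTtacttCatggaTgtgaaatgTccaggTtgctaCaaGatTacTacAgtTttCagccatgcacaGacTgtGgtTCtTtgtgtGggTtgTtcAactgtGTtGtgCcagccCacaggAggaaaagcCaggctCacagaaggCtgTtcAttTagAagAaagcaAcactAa

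Rps27 stood at 26.9, 5.48, 6.41 and 7.80 CPM in the controls and at 6.16, 17.5, 6.59 and 16.3 in DDC. Rps27rt stood at 4.81, 19.3, 20.002 and 25.3 in the controls and at 21.0, 6.07, 19.0 and 5.23 in DDC. The livers fall into those with most reads on Rps27rt and those with few, in both diets: Rps27rt held 15.2, 77.9, 75.7 and 76.4% of the pair's counts in the controls and 77.4, 25.7, 74.3 and 24.3% in DDC. A read from the coding sequence matches both places equally well. The sum of the pair was 31.7, 24.8, 26.4 and 33.1 CPM in the controls and 27.2, 23.6, 25.6 and 21.5 in DDC. With the counts added, an alternative chosen after seeing the data, the log2 difference was -0.24 (SE 0.11, edgeR adjusted p = 0.0872), and the separate values of the 2 genes are not interpretable as expression of either.

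**Figure D5:**
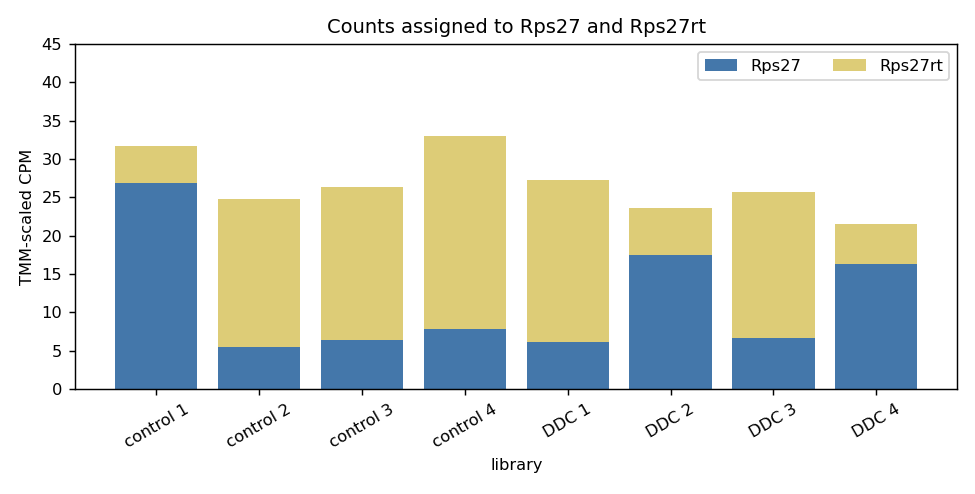
CPM (TMM) assigned to Rps27 and to Rps27rt in each liver, stacked. The sum stays between 21.5 and 33.1 CPM while the part on Rps27rt switches between about 15 to 26% and about 74 to 78%, in both groups.

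The starts of these genes were looked at for the pyrimidine tract, since it is what translation control of the family acts on. Of the 84 members, 64 had a RefSeq promoter window in GRCm38.p6 (76 windows, 250 bases before to 50 after the start). A start with a C followed by at least 4 C or T stood at the annotated first base in 14 of 76 windows, or 18.4%, against 2.51% of all 32851 windows. CCGGAAG, on either strand, was in 35.5% of the windows of members against 8.86% of all, and AAGATGGC in 9.21% against 2.75%. TATAAA was in 9.21% against 13.6%. A match describes letters in a window, and an annotated start may lie some bases from the true one. Among members higher with TMM, Rpl12, Rpl41 and Rpl39l had no tract at the annotated start. Rplp0 of the stalk and the lower members Rpl10, Rps2, Rps28 and Rpl36al had none either. Starts are shown for Rpl38, for some lower members, for Rplp2 and for the Rps27 pair. Most of these carry a tract, unlike most windows of members, so they do not represent the higher members, the lower members or the stalk. Each has 15 bases before and 15 from the annotated start, with the tract in capitals:
Rpl38 (chr11:114668565-114668594, plus strand): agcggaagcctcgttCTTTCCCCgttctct
Rps6 (chr4:86857353-86857382, minus strand): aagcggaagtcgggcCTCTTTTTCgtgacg
Rpl35a (chr16:33056467-33056496, plus strand, 1 of 3 annotated starts, the other 2 without a tract): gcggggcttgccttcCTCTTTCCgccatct
Rplp2 (chr7:141447636-141447665, plus strand): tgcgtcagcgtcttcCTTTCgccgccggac
Rps27 (chr3:90213634-90213663, minus strand): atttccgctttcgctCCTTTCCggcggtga
Rps27rt (chr9:114982725-114982754, minus strand): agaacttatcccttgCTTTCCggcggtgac
Rpl22 (chr4:152325711-152325740, plus strand, 1 of 2 annotated starts, neither with a tract): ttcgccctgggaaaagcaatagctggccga
The 14 members with a tract at the annotated start had a median TMM difference of -0.112 (4 lower, 1 higher) and the other 50 with a window -0.173 (24 lower, 3 higher). With totals the medians were 0.512 and 0.45. The split follows the annotated first base, so the 50 may hold members whose mRNA has a tract. A difference between these sets was not tested.

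Other genes of translation and ribosome production are given by list, each read against the shares of all genes above. Of 2 other proteins of the ribosome, 1 was lower with TMM. Fau was 89.5 ± 13.6 CPM in the controls and 70.6 ± 2.41 in DDC (SD, n = 4; log2 -0.34, edgeR adjusted p = 0.0156), and higher by 0.28 with totals (adjusted p = 0.0282). Rack1, a scaffold on the small subunit, was not called with TMM at 305 ± 18.7 and 274 ± 12.4 CPM (log2 -0.16, edgeR adjusted p = 0.065), and was higher by 0.47 with totals. Elongation and termination factors were lower in 7 of 9 and higher in 0 with TMM, and higher in 6 and lower in 1 with totals. Eef1a1, which brings aminoacyl-tRNA to the ribosome, was 6332 ± 373 CPM in the controls and 3725 ± 18.1 in DDC (log2 -0.77, edgeR adjusted p = 6.44e-06). With totals it was -0.14 (adjusted p = 0.0635). Eef2, the translocation factor, was 2136 CPM in the controls and 1193 in DDC (log2 -0.84), and it remained lower with totals (log2 -0.22, edgeR adjusted p = 0.00411).

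Initiation factors were lower in 22 of 34 with TMM and higher in 4, and higher in 28 and lower in 3 with totals. Eif4b, a helicase cofactor, went from 401 ± 19.3 to 182 ± 4.92 CPM (log2 -1.14, edgeR adjusted p = 3.16e-07) and was also lower with totals (log2 -0.52, adjusted p = 3.82e-05). Eif4a2 and Eif5 were lower in both scalings (log2 -1.03 and -0.81 with TMM, -0.41 and -0.18 with totals). Against the majority, Eif4g3 rose 1.68-fold with TMM (log2 0.75). Other mRNAs known for a TOP start were lower in 14 of 18 with TMM and higher in 1, and higher in 12 and lower in 2 with totals. Regulators of the family's mRNA and of the p53 checkpoint were lower in 11 of 18 and higher in 3 with TMM (median -0.42), and lower in 2 and higher in 9 with totals (median 0.20). Eif4ebp2 went from 310 to 128 CPM with TMM (log2 -1.27). Against the majority was Cdkn1a, a p53 target, at 17.2 ± 3.25 and 42.0 ± 7.88 CPM (log2 1.28, edgeR adjusted p = 0.000155).

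Genes that make ribosomes are given next. Biogenesis factors were higher in 29 of 55 with TMM and lower in 13 (median 0.253), and higher in 49 and lower in 1 with totals. Nop58, a core protein of snoRNPs, went from 17.1 to 31.7 CPM (log2 0.89) and Ppan from 14.5 to 27.5 (log2 0.92), while Rcl1 fell from 141 ± 38.9 to 42.9 CPM (log2 -1.72, edgeR adjusted p = 3.76e-05, -1.10 with totals). RNA polymerase I and its factors were higher in 7 of 14 and lower in 2 with TMM, and higher in 12 and lower in 0 with totals. Hosts of small nucleolar RNAs were higher in 3 of 11 and lower in 0 with TMM, a share near the 30.2% of all genes, and higher in 9 with totals, with Gas5 at 51.6 and 59.6 CPM (log2 0.21, adjusted p = 0.0187). Ribosome rescue factors were lower in 4 of 8 tested and higher in 0 with TMM, and higher in 6 and lower in 1 with totals. Mitochondrial ribosomal proteins were lower in 50 of 81 tested and higher in 2 (median -0.347), and higher in 45 and lower in 4 with totals. Mrpl38 was the largest change among those above 5 CPM, from 82.2 to 36.2 CPM (log2 -1.18). Whether any of these lists differs from the 84 members was not tested.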

How the data were processed

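Livers of 4 control and 4 DDC mice were measured by polyadenylated RNA-seq. The authors deposited gene counts and FPKM values in tables of the whole series. Per the submitters' processing notes, cutadapt, FastQC, HISAT2, StringTie and DESeq2 were used on GRCm38 (mm10), with no versions, while the counting program's strand setting is not stated in those notes or labels. The deposited counts are raw counts per gene, of which 21933 of 55401 genes were at 0 in every library. The FPKM deposited by the authors are scaled to length and depth, and served for levels between genes and for a limma test on log2 FPKM.

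Counts were tested with edgeR 4.0.16 quasi-likelihood (R 4.3.3, TMM, filterByExpr, robust), and again with library totals. limma 3.58.1 and DESeq2 1.42.0 served as alternatives. p-values were adjusted over all tested genes. Ratios of 2 genes were tested by an exact permutation test, two-sided. The members and lists were chosen with earlier results of these data known. Named genes were the 8 largest called changes in each direction with at least 10 CPM, the 3 most abundant, 7 members with known roles, the pairs of relatives, and up to 3 called genes of each translation list with at least 5 CPM plus the largest against its majority. Others are said to be chosen after their values were seen. The scripts were tested on simulated data. Nothing in the labels ties livers to litters. 1 gene of the translation lists is not reported here and is left out of their counts.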

Additional observations from a re-analysis of the deposited data

Results flagged for a closer look

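In each group of 4 livers, single values were looked at for distance from the other 3, by Dixon's ratio at its 95% value of 0.829, in 76 groups of members and ratios, of which 10 met it. Chance gives about 1 in 20 groups.

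Rpl22 of control 2 was low at 71.4 CPM (the others 84.3 to 84.5), and Rpl35a of control 1 was high at 56.3 (the others 42.6 to 44.7). Rpl3l was high in control 4 at 5.41 CPM (the others 2.59 to 2.85) and in DDC 1 at 3.48 (the others 0.461 to 0.749). In DDC 1, Rpl3 was 334 CPM (the others 307.7 to 310.1) and Rps4x 247.5 CPM (the others 233.4 to 235.5). Rps27 of control 1 was 26.9 CPM (the others 5.48 to 7.80), and the log2 ratio of Rps27l to Rps27 there was 0.65 (the others 2.62 to 2.64), in the liver where Rps27rt held 15.2% of the pair's counts. The ratio of large to small subunit counts of DDC 4 was 1.49 (the others 1.463 to 1.465). Rpl10l, a relative of Rpl10 with almost no reads, gave a log2 ratio to Rpl10 of -10.26 in DDC 1 (the others -7.50 to -7.20).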

How the results depend on the processing

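The direction of most members differed between scalings. Over all genes 11501 were higher and 1750 lower with library totals, 11581 and 1821 with log2 FPKM at a pseudocount of 0.1, 11639 and 1809 at 1, and 11006 and 1914 with totals without the 20 most abundant genes. Of the members 72 were higher and 0 lower in the first 3 of these and 69 and 0 in the last, and of the translation lists 171 and 12, 170 and 12, 170 and 12, and 154 and 17. Scaled on the members' own sum, 3413 genes were lower, the members were 16 higher and 6 lower, and 57 genes of the translation lists were lower. With no filter 23 members were lower. DESeq2's test and its size factors each gave 4 higher and 30 lower, and upper-quartile scaling 5 and 25.

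Leaving out 1 library at a time gave 1 to 5 members higher and 23 to 43 lower with TMM, and 0 to 1 lower with totals. Leaving out controls 1 and 3, chosen after seeing the data, gave 19 lower, and leaving out controls 2 and 4 gave 0 higher (44 lower). The replicate block gave 2 members higher and 28 lower with TMM, and 71 and 0 with totals. Livers of the same number share only a number: the correlations of their deviations were -0.26, -0.225, 0.0302 and -0.0939. With the block the Rpl39l, Rpl41 and Rpl37rt calls were lost (adjusted p = 0.142, 0.0701 and 0.0714) and Rpl3l gained one (0.0433); no other named gene's call changed. The log2 ratio differences without 1 library at a time were -2.29 to -1.31 (Rpl3l/Rpl3), -0.54 to -0.39 (Rpl36al/Rpl36a), 0.18 to 0.29 (Rpl7l1/Rpl7), 0.43 to 0.71 (Rps4l/Rps4x). Without any 1 DDC liver the exact permutation p of Rpl36al/Rpl36a and of Rpl7l1/Rpl7 was 0.0571. Rpl39l and Rpl3l rest on low counts. Rpl38 had 228 to 430 counts in the controls and 678 to 944 in DDC, with both group means under 10 CPM.

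With library totals the log2 difference turned for Rpl22 (0.027), Rpl36al (0.036), Rps28 (0.087), Rpl10 (0.10), Rps2 (0.13), Rps27l (0.16), Rpl35a (0.20), Rpl7 (0.21), Rpsa (0.38), Rpl4 (0.28), Rplp1 (0.57), Rplp2 (0.50), Rpl5 (0.32), Rpl11 (0.35), Rps6 (0.29), Rpl3 (0.48), Rpl36a (0.47), Rpl7l1 (0.45), Rps4x (0.32), Fau (0.28), Eef1d (0.077), Polr1d (0.12), Ifrd2 (0.039), Zfp598 (0.18), Rpl37rt (0.062). With log2 FPKM at a pseudocount of 0.1 the log2 difference turned for Rpl22 (0.022), Rpl36al (0.031), Rps28 (0.062), Rpl10 (0.098), Rps2 (0.13), Rps27l (0.16), Rpl35a (0.19), Rpl7 (0.21), Rpsa (0.38), Rpl4 (0.28), Rplp1 (0.56), Rplp2 (0.50), Rpl5 (0.32), Rpl11 (0.35), Rps6 (0.29), Rpl3 (0.50), Rpl36a (0.48), Rpl7l1 (0.44), Rps4x (0.32), Fau (0.29), Eef1d (0.077), Polr1d (0.12), Ifrd2 (0.036), Zfp598 (0.17), Rpl37rt (0.053). With log2 FPKM at a pseudocount of 1 the log2 difference turned for Rpl22 (0.021), Rpl36al (0.0304), Rps28 (0.057), Rpl10 (0.097), Rps2 (0.13), Rps27l (0.16), Rpl35a (0.18), Rpl7 (0.21), Rpsa (0.38), Rpl4 (0.28), Rplp1 (0.56), Rplp2 (0.48), Rpl5 (0.31), Rpl11 (0.35), Rps6 (0.29), Rpl3 (0.49), Rpl36a (0.46), Rpl7l1 (0.42), Rps4x (0.32), Fau (0.28), Eef1d (0.072), Polr1d (0.11), Ifrd2 (0.034), Zfp598 (0.16), Rpl37rt (0.042). With totals without the 20 most abundant genes the log2 difference turned for Rps28 (0.034), Rpl10 (0.047), Rps2 (0.079), Rps27l (0.11), Rpl35a (0.14), Rpl7 (0.16), Rpsa (0.32), Rpl4 (0.23), Rplp1 (0.52), Rplp2 (0.45), Rpl5 (0.27), Rpl11 (0.30), Rps6 (0.24), Rpl3 (0.42), Rpl36a (0.41), Rpl7l1 (0.40), Rps4x (0.27), Fau (0.23), Eef1d (0.024), Polr1d (0.068), Zfp598 (0.12), Rpl37rt (0.0085).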
